A study of Mus musculus with 10 samples.

Results

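The genes described here are those of hepatic stellate cells, fibroblasts and matrix remodelling, taken by name from a list of 42 symbols. Of these, 41 were found among the 19414 genes of the expression table. A mean of 1 CPM (read count per 1000000 reads on all genes of that table) was needed for a test, and 37 of the 41 reached it. The symbol Ctgf is not among the table's names. RefSeq gives it as an older symbol of Ccn2, which is described with the other genes of the TGF-beta pathway. Timp1, Lox, Tgfb2 and Tgfb3 lay under 1 CPM and were not tested.

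Expression was measured by poly-A selected bulk RNA sequencing in whole liver. The 10 mice were females of the HET3 stock, a cross of several inbred strains in which each animal carries its own mixture of alleles. For 5 months, 5 mice were fed the Longevity diet (LD_405, LD_406, LD_442, LD_513 and LD_515) and 5 the standard diet (SD_403, SD_500, SD_501, SD_502 and SD_646). Their stated age is 25 months, and the labels can be read as giving it for the start or the end of feeding. The series title calls the diet methionine-supplemented while the sample labels give no composition. No label names a batch. The question is how these genes differ in the liver between the diets, and values are always given in the order in which the mice are named here.

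Stellate cells lie between the sinusoidal endothelium and the hepatocytes, where they store vitamin A as retinyl esters. In liver injury they can become contractile myofibroblasts that deposit collagen, driven above all by TGF-beta and by platelet-derived growth factor (PDGF). The deposited matrix is cut by matrix metalloproteinases, which tissue inhibitors (TIMPs) block, and crosslinked by lysyl oxidases. In RNA of whole liver, fewer cells of a type and less RNA per cell cannot be told apart.

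The estimated depth was 24.7 to 39.0 M reads (M, 1000000 reads) on the Longevity diet and 36.0 to 45.7 M on the standard diet. On the first principal component of all tested genes LD_405 stood apart at -96.2, the other mice lying between -38.2 and 43.9. Median-of-ratios scaling moved the median log2 difference of all tested genes, -0.11, by 0.10, and turned the split of calls into 151 higher and 138 lower, against 87 higher and 162 lower with CPM as deposited. The albumin gene Alb, the most abundant hepatocyte marker here, stood at 124794 ± 20701 CPM on the Longevity diet and 79126 ± 19773 CPM on the standard diet (log2 difference 0.68, SE 0.18, adjusted p = 0.0831), and its part in the other genes' CPM was not tested.

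Most of the 37 tested genes stood lower on the Longevity diet, but few by more than the test required. Of the 37, 0 rose and 2 fell at a Benjamini-Hochberg adjusted p under 0.05 over all 13157 tested genes (limma on log2(CPM + 0.1)), namely Postn and Pdgfrb. Among all tested genes 1.23% fell and 0.661% rose by the same rule. The count of 2 changed with the mice included, being 0 without LD_406, LD_515, SD_403, SD_500 or SD_501, 1 without LD_513 or SD_646, 3 without LD_405 or SD_502 and 4 without LD_442. The unadjusted limma p was under 0.05 with a lower value for 14 of the 37 genes, or 37.8%, where 11.6% of all tested genes met that rule, and for 0 genes with a higher value, where 5.92% did. The log2 difference (Longevity diet minus standard diet) was below 0 for 35 of 37 genes, against 60.4% of all tested genes, and for 34 with median-of-ratios scaling and 31 after quantile normalization. Its median over the 37 was -0.65, against -0.11 over all tested genes, and it was -0.41 after quantile normalization, when the median of all genes was 0.00. The list was chosen with earlier results of these data known, so these shares and medians describe it and are no test of it.

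**Figure D1:**
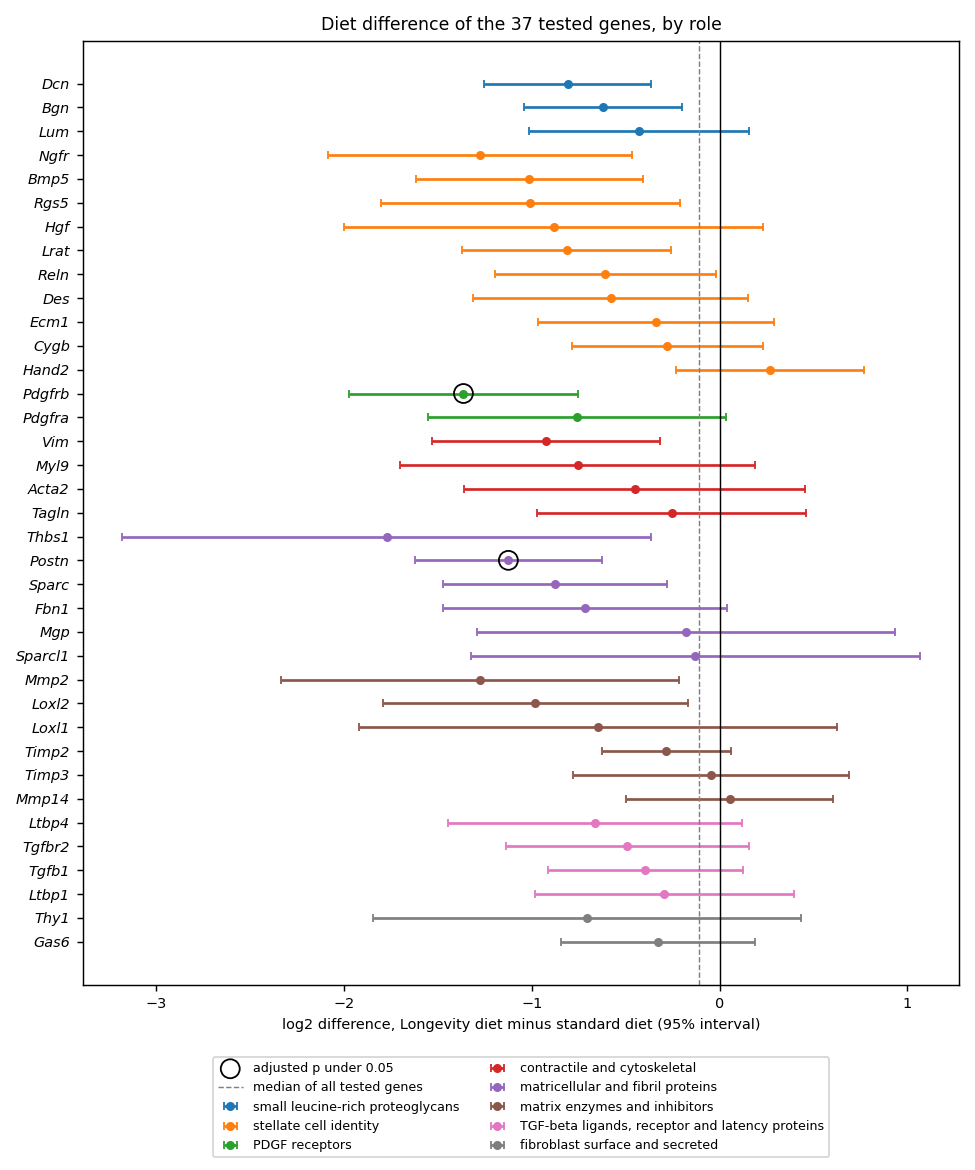
Log2 difference between the diets (x axis, Longevity diet minus standard diet) for each of the 37 tested genes (y axis, coloured and grouped by role), with 95% intervals from limma (n = 5 mice per diet). Circles mark Postn and Pdgfrb, the dashed line is the median of all tested genes at -0.11, and 35 of the 37 points lie below 0.

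Periostin, Postn (ENSMUSG00000027750.17, chromosome 3 from 54268530 to 54298458, plus strand), is a secreted matricellular protein that binds collagen and integrins and is produced by activated stellate cells and fibroblasts. It had 4.89, 6.07, 6.68, 5.12 and 3.96 CPM on the Longevity diet, against 13.0, 11.4, 12.3, 7.89 and 14.5 CPM on the standard diet. Every value on the Longevity diet lay under every value on the standard diet, where SD_502 was lowest. The means were 5.34 ± 1.06 CPM on the Longevity diet and 11.8 ± 2.48 CPM on the standard diet (SD, n = 5 each), and Postn fell by 1.12 on the log2 scale (SE 0.23, 95% interval -1.62 to -0.63, limma adjusted p = 0.0275, exact permutation p = 0.00794, the smallest that 5 against 5 mice can give). The adjusted p was over 0.05 in 10 of 21 alternative settings, with 0.0517 after quantile normalization, 0.0643 with the leading digit of the mouse number as a covariate, 0.197 without both LD_406 and LD_515, 0.0624 without LD_406, 0.0547 without LD_513, 0.0740 without LD_515, 0.0782 without SD_403, 0.0693 without SD_500, 0.0643 without SD_501 and 0.0700 without SD_646. The log2 difference ran from -1.26 to -0.94 over these settings.

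The PDGF receptors receive the growth signal to which stellate cells respond most strongly. Pdgfrb (ENSMUSG00000024620.12, chromosome 18 from 61178222 to 61218133, plus strand), the receptor subunit of stellate cells and pericytes, had 3.87, 3.60, 5.58, 6.45 and 2.27 CPM on the Longevity diet, against 10.3, 13.7, 11.7, 10.2 and 8.33 CPM on the standard diet. The diets did not overlap, with LD_515 lowest and SD_500 highest of the 10 mice. Pdgfrb fell by 1.36 on the log2 scale, to 4.35 ± 1.66 CPM on the Longevity diet, against 10.8 ± 1.97 CPM on the standard diet (SE 0.28, 95% interval -1.98 to -0.75, limma adjusted p = 0.0290, exact permutation p = 0.00794). In 7 of 21 alternative settings Pdgfrb no longer passed, the adjusted p being 0.0915 with the leading digit of the mouse number as a covariate, 0.0868 without LD_406, 0.0668 without LD_515, 0.0764 without SD_403, 0.0827 without SD_500 and 0.0693 without SD_501, and up to 0.221 without both LD_406 and LD_515. The related subunit Pdgfra, which also marks fibroblasts, had 1.89, 5.82, 7.23, 7.18 and 8.31 CPM on the Longevity diet, against 10.3, 13.9, 6.86, 8.59 and 8.22 CPM on the standard diet (log2 difference -0.76, SE 0.37, adjusted p = 0.305). Its values overlapped, and LD_405 lay far under the other mice. For 2 of the 37 listed genes, Postn and Pdgfrb, all 5 Longevity diet values lay under all 5 standard diet values, a pattern shown by 3.49% of all tested genes. The opposite pattern, all 5 values above, held for 0 listed genes and 2.01% of all tested genes.

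**Figure D2:**
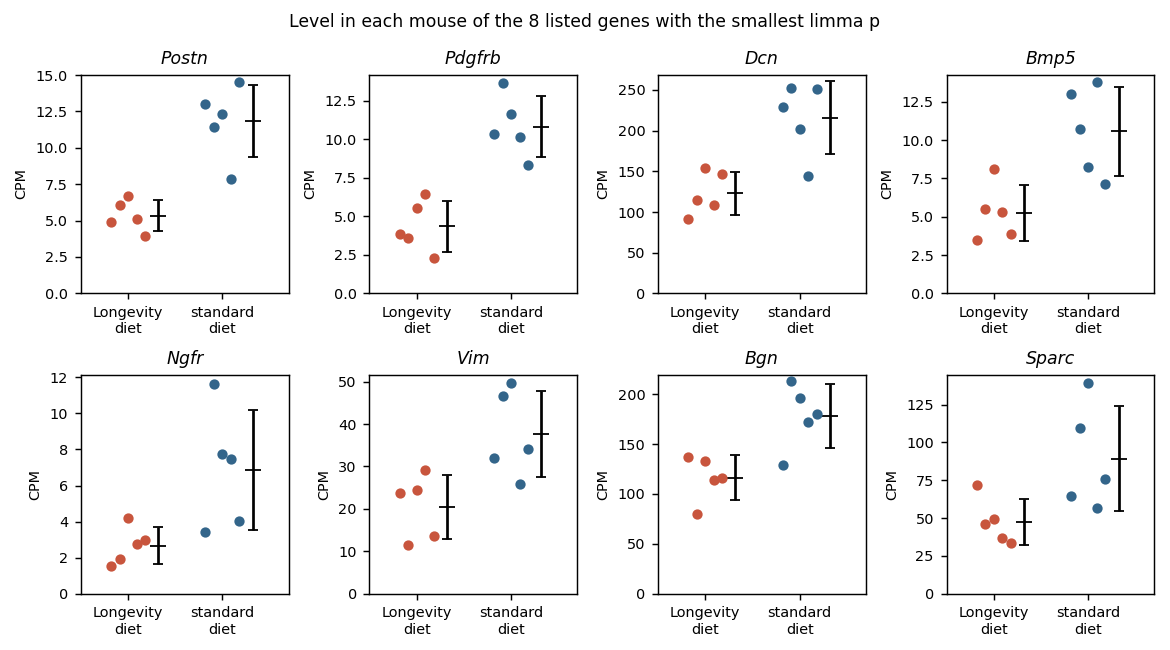
CPM (y axes, linear from 0) in each mouse on the Longevity diet (left) and the standard diet (right) for the 8 listed genes with the smallest limma p, with the mean and SD of 5 mice beside the points. The diets are apart for Postn and Pdgfrb and overlap for Dcn, Bmp5, Ngfr, Vim, Bgn and Sparc.

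Promoter windows from RefSeq (GRCm38.p6, a different build from the mm39 coordinates above) were looked up for the tested listed genes with the smallest p, to show what lies at their starts. Of the 41 genes 27 had an entry. Pdgfrb and Dcn, which had a smaller p than Bmp5, had none. The genes shown are Postn, with its 2 listed starts, Bmp5, Ngfr and Vim, of which only Postn passed the threshold. Each window runs from 250 bases before to 50 bases after the start, 5′ to 3′ on the gene's strand. Capitals mark TATAAA, the core of a TATA box, and GGGCGG, the core of a GC box, on either strand.
Postn, chr3:54359017-54359316, plus strand: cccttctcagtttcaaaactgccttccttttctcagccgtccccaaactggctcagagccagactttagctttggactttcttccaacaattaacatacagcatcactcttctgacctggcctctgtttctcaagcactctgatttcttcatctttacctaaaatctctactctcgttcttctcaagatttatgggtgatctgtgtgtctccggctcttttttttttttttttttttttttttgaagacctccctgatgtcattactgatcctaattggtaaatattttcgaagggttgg
Postn, chr3:54360857-54361156, plus strand: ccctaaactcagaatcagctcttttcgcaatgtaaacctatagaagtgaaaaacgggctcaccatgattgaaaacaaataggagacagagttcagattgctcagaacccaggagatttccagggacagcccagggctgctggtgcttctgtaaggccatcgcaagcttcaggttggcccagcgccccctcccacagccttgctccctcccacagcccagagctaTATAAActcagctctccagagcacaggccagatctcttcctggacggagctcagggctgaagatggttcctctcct
Bmp5, chr9:75775115-75775414, plus strand: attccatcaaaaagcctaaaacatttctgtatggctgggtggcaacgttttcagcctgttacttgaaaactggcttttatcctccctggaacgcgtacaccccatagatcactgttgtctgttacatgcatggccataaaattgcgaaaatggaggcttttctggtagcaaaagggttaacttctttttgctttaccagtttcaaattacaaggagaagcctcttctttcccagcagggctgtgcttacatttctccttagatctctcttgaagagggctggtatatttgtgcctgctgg
Ngfr, chr11:95587649-95587948, minus strand: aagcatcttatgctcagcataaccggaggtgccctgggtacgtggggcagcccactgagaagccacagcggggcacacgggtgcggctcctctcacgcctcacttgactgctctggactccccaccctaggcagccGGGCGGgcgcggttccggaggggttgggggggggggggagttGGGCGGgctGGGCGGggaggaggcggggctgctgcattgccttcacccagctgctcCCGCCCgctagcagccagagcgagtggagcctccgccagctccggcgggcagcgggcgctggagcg
Vim, chr2:13574061-13574360, plus strand: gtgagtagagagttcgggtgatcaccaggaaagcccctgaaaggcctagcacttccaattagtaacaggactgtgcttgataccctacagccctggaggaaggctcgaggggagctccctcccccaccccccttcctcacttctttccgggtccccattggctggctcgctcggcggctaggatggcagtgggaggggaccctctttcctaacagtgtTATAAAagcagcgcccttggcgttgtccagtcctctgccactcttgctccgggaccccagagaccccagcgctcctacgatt

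TATAAA began 26 bases before the second start of Postn and 32 bases before the start of Vim. The window of Ngfr had 4 GC box cores and a GC content of 71.7%, while that of Bmp5 and the first of Postn held neither motif. Over the 32 windows of listed genes 12.5% held TATAAA and 56.3% held GGGCGG on either strand, against 13.6% and 35.7% of all 32851 windows of the same length. Neither motif was in all 5 windows shown, and the median GC content was 58.5% for the windows of listed genes and 52.7% for all windows.

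The small leucine-rich proteoglycans Dcn, Bgn and Lum coat collagen fibrils, and Dcn and Bgn also bind TGF-beta. Per kb of exon, decorin was the most abundant of them, at 21.1 CPM per kb on the Longevity diet and 37.0 CPM per kb on the standard diet. Biglycan stood at 19.0 CPM per kb on the Longevity diet and 29.2 CPM per kb on the standard diet, and lumican at 3.62 CPM per kb on the Longevity diet and 4.93 CPM per kb on the standard diet. This order was the same on both diets.

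Dcn had 90.9, 114, 155, 109 and 146 CPM on the Longevity diet, against 229, 253, 202, 145 and 251 CPM on the standard diet. One standard diet mouse, SD_502, lay under the Longevity diet mice LD_442 and LD_515, and the other standard diet mice lay above all 5 (log2 difference -0.81, SE 0.21, adjusted p = 0.0680). Bgn had 137, 80.0, 133, 114 and 116 CPM on the Longevity diet, against 129, 213, 197, 172 and 180.1 CPM on the standard diet. Here SD_403 overlapped the Longevity diet (log2 difference -0.62, SE 0.20, adjusted p = 0.126). Lum, which lies 47.0 kb from Dcn on chromosome 10 with 0 other genes of the table between them, averaged 8.86 ± 2.48 CPM on the Longevity diet and 12.1 ± 3.73 CPM on the standard diet (log2 difference -0.43, SE 0.27, adjusted p = 0.431). Of the 3 proteoglycan genes 0 passed the threshold, and their median log2 difference was -0.62.

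Of 10 genes that mark stellate cells, 0 rose and 0 fell at the adjusted threshold, and the median log2 difference was -0.71. An unadjusted limma p under 0.05 with a lower value was found for 5, against 11.6% of all tested genes. Lrat, the enzyme that esterifies vitamin A for storage, had 8.04, 13.3, 20.9, 12.2 and 9.35 CPM on the Longevity diet, against 24.5, 25.4, 24.2, 16.2 and 17.9 CPM on the standard diet. On the Longevity diet LD_442 overlapped the standard diet and the other values lay under it (log2 difference -0.81, SE 0.26, adjusted p = 0.128). The p75 neurotrophin receptor gene Ngfr had 1.51, 1.90, 4.20, 2.75 and 2.96 CPM on the Longevity diet, against 3.42, 11.6, 7.78, 7.48 and 4.01 CPM on the standard diet. Only LD_442 reached the standard diet range, in which SD_403 and SD_646 were lowest (log2 difference -1.28, SE 0.38, adjusted p = 0.104).

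Bmp5, a ligand of the BMP branch of TGF-beta signalling, had 3.47, 5.51, 8.13, 5.33 and 3.85 CPM on the Longevity diet, against 13.0, 10.7, 8.25, 13.8 and 7.11 CPM on the standard diet. LD_442 was again the one Longevity diet mouse inside the standard diet range (log2 difference -1.01, SE 0.28, adjusted p = 0.0887). The regulator of G-protein signalling Rgs5, a gene of pericytes, had 15.0, 42.1, 49.9, 29.6 and 82.8 CPM on the Longevity diet, against 101, 54.5, 85.7, 60.6 and 89.6 CPM on the standard diet. It was lowest in LD_405, whereas LD_515 lay within the standard diet range (log2 difference -1.01, SE 0.37, adjusted p = 0.177).

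Reln, a secreted glycoprotein, averaged 34.1 ± 12.8 CPM on the Longevity diet and 51.2 ± 15.2 CPM on the standard diet (log2 difference -0.61, SE 0.27, adjusted p = 0.269). Hgf, the hepatocyte growth factor made by stellate cells for neighbouring hepatocytes, averaged 2.79 ± 1.47 CPM on the Longevity diet and 5.51 ± 3.35 CPM on the standard diet (log2 difference -0.88, SE 0.52, adjusted p = 0.401), and SD_403 had 1.40 CPM, within the Longevity diet range. The intermediate filament gene Des stood at 7.35 ± 4.23 CPM on the Longevity diet and 10.5 ± 3.78 CPM on the standard diet (log2 difference -0.58, SE 0.34, adjusted p = 0.401). All 3 overlapped between the diets.

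Other genes of the group showed smaller differences. Ecm1, a secreted matrix protein, had 414, 188, 216, 112 and 152 CPM on the Longevity diet, against 296, 309, 208, 212 and 228 CPM on the standard diet. Both the highest value, in LD_405, and the lowest, in LD_513, were on the Longevity diet (log2 difference -0.34, SE 0.29, adjusted p = 0.579). The globin Cygb averaged 12.3 ± 2.98 CPM on the Longevity diet and 15.0 ± 4.12 CPM on the standard diet (log2 difference -0.28, SE 0.24, adjusted p = 0.573). Hand2, a transcription factor of stellate cells, was one of the 2 listed genes with a higher mean log2 level on the Longevity diet, at 11.4 ± 2.91 CPM on the Longevity diet and 9.37 ± 1.92 CPM on the standard diet (log2 difference 0.27, SE 0.23, adjusted p = 0.579). It was highest in LD_405 and lowest in SD_501, with overlap between.

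The contractile and cytoskeletal genes differ in how far they mark the myofibroblast state. Vimentin, Vim, is an intermediate filament of all mesenchymal cells and of leukocytes and had 23.8, 11.4, 24.4, 29.1 and 13.7 CPM on the Longevity diet, against 32.1, 46.5, 49.7, 25.9 and 34.1 CPM on the standard diet. SD_502 was the one standard diet mouse inside the Longevity diet range (log2 difference -0.92, SE 0.28, adjusted p = 0.115). Acta2, the smooth muscle actin used to identify myofibroblasts, had 3.92, 1.58, 1.73, 4.14 and 2.77 CPM on the Longevity diet, against 4.27, 5.76, 6.22, 1.50 and 2.66 CPM on the standard diet. Its lowest value was in SD_502 and the diets overlapped (log2 difference -0.45, SE 0.42, adjusted p = 0.610, 95% interval -1.36 to 0.46).

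Tagln, an actin-binding protein of smooth muscle and myofibroblasts, had 6.66, 5.27, 5.23, 4.46 and 6.38 CPM on the Longevity diet, against 4.19, 8.31, 12.4, 3.42 and 8.65 CPM on the standard diet. The 5 Longevity diet values lay between the standard diet values of SD_403 and SD_500, and SD_501 was highest (log2 difference -0.25, SE 0.33, adjusted p = 0.723). Myl9, a myosin light chain, averaged 1.64 ± 1.08 CPM on the Longevity diet and 2.53 ± 0.828 CPM on the standard diet (log2 difference -0.76, SE 0.44, adjusted p = 0.395). Of the 4 genes 0 passed the threshold, and the median log2 difference was -0.60.

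Among 6 tested matricellular and fibril genes 1, Postn, fell and 0 rose, where 1.23% of all tested genes fell and 0.661% rose. The median log2 difference of the 6 was -0.80. Sparc, a collagen-binding glycoprotein that shapes fibril assembly, had 72.0, 46.2, 49.6, 36.6 and 33.5 CPM on the Longevity diet, against 64.6, 109.6, 139, 56.4 and 76.0 CPM on the standard diet. LD_405 lay above SD_403 and SD_502, and the other Longevity diet mice lay under all standard diet mice (log2 difference -0.88, SE 0.28, adjusted p = 0.127). Without LD_405 the adjusted p of Sparc was under 0.05, and 3 listed genes fell. Thbs1, a matricellular protein that can activate latent TGF-beta, had 0.205, 0.121, 0.471, 1.30 and 0.462 CPM on the Longevity diet, against 3.50, 1.71, 3.55, 0.951 and 0.465 CPM on the standard diet. LD_406 lay at the floor of 3 reads (0.0657 to 0.121 CPM, depending on the library). SD_502 and SD_646 lay within the Longevity diet range, and the SE was the widest of the 37 genes (log2 difference -1.77, SE 0.65, adjusted p = 0.178).

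The microfibril gene Fbn1 averaged 1.61 ± 0.580 CPM on the Longevity diet and 2.71 ± 0.913 CPM on the standard diet (log2 difference -0.72, SE 0.35, adjusted p = 0.310). Sparcl1, a relative of Sparc, averaged 6.54 ± 4.12 CPM on the Longevity diet and 6.95 ± 4.28 CPM on the standard diet (log2 difference -0.13, SE 0.55, adjusted p = 0.926), and the calcification inhibitor Mgp averaged 2.13 ± 1.10 CPM on the Longevity diet and 2.78 ± 2.45 CPM on the standard diet (log2 difference -0.18, SE 0.52, adjusted p = 0.887). The sign for both turned under quantile normalization.

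Of the 6 tested matrix enzymes and inhibitors 5 had a log2 difference below 0, where 60.4% of all tested genes did. Mmp14, a membrane-bound collagenase that activates Mmp2, had 26.5, 43.5, 44.7, 66.1 and 44.2 CPM on the Longevity diet, against 49.7, 43.6, 37.4, 56.4 and 27.4 CPM on the standard diet. The ranges of the diets overlapped over most of their length, with LD_513 highest and LD_405 lowest (log2 difference 0.05, SE 0.26, adjusted p = 0.934, 95% interval -0.50 to 0.60), and the sign turned without LD_513 or without SD_646. Its substrate Mmp2, a gelatinase, averaged 1.68 ± 1.12 CPM on the Longevity diet and 3.82 ± 1.65 CPM on the standard diet (log2 difference -1.28, SE 0.49, adjusted p = 0.198). SD_646 lay within the Longevity diet range and the other standard diet mice above it.

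The inhibitor Timp2 varied little between mice and had 19.3, 16.8, 20.6, 20.4 and 18.9 CPM on the Longevity diet, against 20.0, 23.2, 26.0, 23.8 and 24.1 CPM on the standard diet. LD_442 and LD_513 reached just past SD_403, and the other Longevity diet mice lay under the standard diet (log2 difference -0.28, SE 0.16, adjusted p = 0.379). Timp3, an inhibitor that stays bound to the matrix, averaged 20.6 ± 6.49 CPM on the Longevity diet and 21.8 ± 8.67 CPM on the standard diet (log2 difference -0.05, SE 0.34, adjusted p = 0.960), and its sign turned under all 3 other scalings. Timp1, the inhibitor most closely tied to fibrosis, had 0.640, 0.0404, 0.236, 0.579 and 0.0769 CPM on the Longevity diet, against 1.69, 1.69, 0.833, 0.0501 and 0.377 CPM on the standard diet. LD_406, LD_515 and SD_502 were under the floor of 3 reads, so that it was not detectable at this depth there. Per kb the order on both diets was Timp2 (4.93 CPM per kb on the Longevity diet and 6.01 CPM per kb on the standard diet), Timp3 (2.53 CPM per kb on the Longevity diet and 2.67 CPM per kb on the standard diet) and Timp1 (0.354 CPM per kb on the Longevity diet and 1.04 CPM per kb on the standard diet).

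The lysyl oxidases were scarce. Loxl2 averaged 1.61 ± 0.636 CPM on the Longevity diet and 3.19 ± 1.01 CPM on the standard diet (log2 difference -0.98, SE 0.38, adjusted p = 0.195) and Loxl1 0.846 ± 0.176 CPM on the Longevity diet and 1.89 ± 1.52 CPM on the standard diet (log2 difference -0.65, SE 0.59, adjusted p = 0.600). Lox had 0.205, 0.121, 0.275, 0.463 and 0.115 CPM on the Longevity diet, against 0, 1.01, 1.03, 0.300 and 0.731 CPM on the standard diet. LD_406 and LD_515 lay at the floor, and SD_403, listed at 0, lay under it. Of the 6 tested enzymes and inhibitors 0 passed the threshold, and the median log2 difference was -0.47.

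No TGF-beta ligand, receptor or latency gene passed the threshold, and 0 of 4 tested had an unadjusted limma p under 0.05. Per kb of exon Tgfb1 was the most abundant ligand, at 2.13 CPM per kb on the Longevity diet and 2.72 CPM per kb on the standard diet, followed by Tgfb3 at 0.194 CPM per kb on the Longevity diet and 0.311 CPM per kb on the standard diet and Tgfb2 at 0.0656 CPM per kb on the Longevity diet and 0.0824 CPM per kb on the standard diet. Tgfb1 averaged 10.7 ± 3.52 CPM on the Longevity diet and 13.7 ± 2.27 CPM on the standard diet (log2 difference -0.40, SE 0.24, adjusted p = 0.416). Tgfb3 had 0.589, 0.607, 0.628, 0.492 and 0.962 CPM on the Longevity diet, against 0.832, 0.811, 1.47, 1.08 and 1.06 CPM on the standard diet. LD_515 lay within the standard diet range and the other Longevity diet mice under it, at levels that were not tested. Tgfb2 averaged 0.380 ± 0.270 CPM on the Longevity diet and 0.477 ± 0.697 CPM on the standard diet, with LD_405 and SD_646 under the floor.

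Tgfbr2, the receptor that binds the ligands, had 11.2, 7.04, 19.8, 11.9 and 19.7 CPM on the Longevity diet, against 12.9, 22.8, 22.8, 21.8 and 13.9 CPM on the standard diet. LD_406 was lowest and the diets overlapped (log2 difference -0.49, SE 0.30, adjusted p = 0.417). Ltbp4, which tethers latent TGF-beta to the matrix, had 31.6, 25.4, 29.5, 28.9 and 12.1 CPM on the Longevity diet, against 48.2, 48.5, 31.7, 67.9 and 16.5 CPM on the standard diet. The lowest values were those of LD_515 and SD_646 (log2 difference -0.66, SE 0.36, adjusted p = 0.368). Its relative Ltbp1 averaged 1.99 ± 0.836 CPM on the Longevity diet and 2.32 ± 0.229 CPM on the standard diet (log2 difference -0.29, SE 0.32, adjusted p = 0.668), with a sign that turned under quantile normalization. The standard diet mice lay closer together than the Longevity diet mice.

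Gas6, the ligand of the TAM receptors, had 106, 86.4, 76.9, 65.0 and 54.9 CPM on the Longevity diet, against 111, 87.7, 58.7, 127 and 108 CPM on the standard diet. The values overlapped, with LD_515 lowest and SD_502 highest (log2 difference -0.33, SE 0.24, adjusted p = 0.504). Thy1, a surface protein of portal fibroblasts and also of T cells, had 4.81, 0.849, 2.91, 4.72 and 1.08 CPM on the Longevity diet, against 4.23, 7.23, 5.41, 1.60 and 2.99 CPM on the standard diet. It was lowest in LD_406 and LD_515 and highest in SD_500 (log2 difference -0.71, SE 0.53, adjusted p = 0.515), and the sign turned without LD_406 and LD_515 together.

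The mice differed in how many of these genes stood low. In 33 of the 37 tested genes the lowest of the 10 values was in a Longevity diet mouse, where 62.8% of all tested genes had it there, and in 33 the highest was in a standard diet mouse, as in 57% of all tested genes. LD_405 held the lowest value of 14 genes and the highest of 2, namely Ecm1 and Hand2. SD_501 held the highest value of 16 genes, SD_500 of 10 and SD_502 of 5. The matching shares of all tested genes were not computed for single mice, so these counts show nothing particular to the listed genes. LD_405 also stood apart on the first principal component of all tested genes. The mean z-score (distance from a gene's mean over the 10 mice, in SDs) over the 37 genes was -0.70 in LD_406, -0.63 in LD_515, -0.60 in LD_405, -0.30 in LD_513 and -0.09 in LD_442, against 0.88 in SD_500, 0.83 in SD_501, 0.36 in SD_403, 0.19 in SD_502 and 0.06 in SD_646.

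The role groups did not order the mice in 1 way. For the contractile and cytoskeletal genes LD_406 was lowest (-1.11), LD_515 (-0.83) lay level with SD_502 (-0.82), and LD_405 (0.37) lay above SD_403 (0.11). For the matrix enzymes and inhibitors LD_405 was lowest (-1.42), LD_406 (-0.63) lay level with SD_646 (-0.63), and LD_513 (0.32) lay above SD_403 (0.20). For the stellate cell genes the Longevity diet mice lay between -0.78 and -0.03 and the standard diet mice between 0.14 and 0.79.

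**Figure D3:**
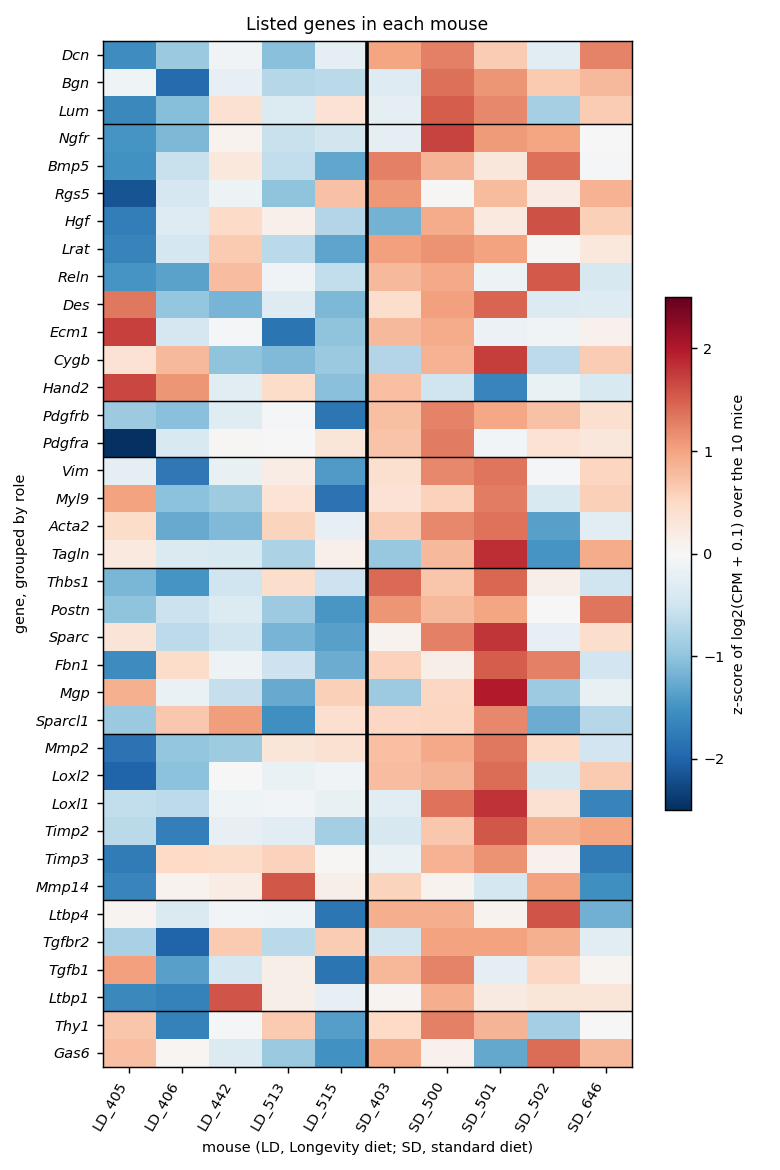
Z-score of log2(CPM + 0.1) over the 10 mice (colour) for the 37 tested genes (rows, grouped by role) in each mouse (columns, Longevity diet left of the line and standard diet right of it). The lowest values of 33 genes lie left of the line, and LD_405 holds the lowest value of 14 genes and the highest of Ecm1 and Hand2.

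Other genes of the same pathways were looked at by list. Of 22 tested genes of the TGF-beta pathway 0 rose and 0 fell, with a median log2 difference of -0.25. At an unadjusted limma p under 0.05, 5 were lower, against 11.6% of all tested genes. The log2 difference was below 0 for 22 of 22 genes with CPM as deposited, against 60.4% of all tested genes. It was below 0 for 14 with median-of-ratios or TMM style scaling, against 50.8% of all tested genes. After quantile normalization it was below 0 for 13, against 49.6% of all tested genes. The inhibitory Smad6 averaged 8.05 ± 2.05 CPM on the Longevity diet and 12.9 ± 1.77 CPM on the standard diet (log2 difference -0.71, SE 0.22, adjusted p = 0.124), without overlap between the diets. Its relative Smad7 averaged 8.84 ± 4.61 CPM on the Longevity diet and 16.6 ± 2.22 CPM on the standard diet (log2 difference -1.08, SE 0.35, adjusted p = 0.135). The latency protein Ltbp2 averaged 0.857 ± 0.341 CPM on the Longevity diet and 2.29 ± 0.825 CPM on the standard diet (log2 difference -1.34, SE 0.38, adjusted p = 0.0979), and the TGF-beta induced matrix gene Tgfbi 39.7 ± 6.24 CPM on the Longevity diet and 56.5 ± 10.5 CPM on the standard diet (log2 difference -0.50, SE 0.19, adjusted p = 0.195). Ccn2, the connective tissue growth factor, had 7.26, 10.2, 12.8, 9.67 and 10.1 CPM on the Longevity diet, against 13.6, 3.70, 23.3, 8.79 and 10.6 CPM on the standard diet. Both the highest and the lowest value were in standard diet mice, SD_501 and SD_500 (log2 difference -0.05, SE 0.38, adjusted p = 0.962), and the sign turned under all 3 other scalings.

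Of 15 tested collagens 2 fell and 0 rose, where 1.23% of all tested genes fell and 0.661% rose. The median log2 difference of the collagens was -0.67. Col5a1, of a minor fibrillar collagen, fell to 3.92 ± 1.08 CPM on the Longevity diet, against 11.1 ± 1.93 CPM on the standard diet (log2 difference -1.50, SE 0.24, adjusted p = 0.00974), and Col14a1, of a fibril-associated collagen, fell to 20.2 ± 6.83 CPM on the Longevity diet, against 51.3 ± 6.04 CPM on the standard diet (log2 difference -1.40, SE 0.23, adjusted p = 0.0102). Both calls were lost in 1 of 21 settings, without LD_406 and LD_515 together (adjusted p = 0.118 for Col5a1 and 0.105 for Col14a1). The major fibrillar genes Col1a2 (log2 difference -1.35, SE 0.34, adjusted p = 0.0630) and Col3a1 (log2 difference -1.38, SE 0.44, adjusted p = 0.129) varied more between mice. Among 13 genes of collagen processing 1 fell and 0 rose, against the same shares of all tested genes, with a median of -0.22. It was Serpinh1, the collagen chaperone, at 7.08 ± 1.17 CPM on the Longevity diet and 16.6 ± 4.30 CPM on the standard diet (log2 difference -1.19, SE 0.22, adjusted p = 0.0179), with adjusted p of 0.0624 without LD_406, 0.0529 without LD_515, 0.195 without both, 0.0573 without SD_500, 0.0992 with the mouse number covariate and 0.0531 after quantile normalization. Pcolce, which enhances procollagen cleavage, gave a log2 difference of -0.72 (adjusted p = 0.202), the protease Bmp1 -0.40 (adjusted p = 0.326) and the prolyl hydroxylase subunit P4hb 0.27 (adjusted p = 0.373).

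Of 11 other matrix proteases and inhibitors 1 fell and 0 rose, where 1.23% of all tested genes fell and 0.661% rose. The median log2 difference of the 11 was -0.52. The aggrecanase Adamts5 fell to 1.04 ± 0.564 CPM on the Longevity diet, against 3.34 ± 1.20 CPM on the standard diet (log2 difference -1.67, SE 0.39, adjusted p = 0.0468), a call kept in 4 of 20 alternative settings. Leaving out any 1 mouse other than LD_513 ended it (adjusted p from 0.0525 without LD_442 to 0.126 without LD_406), and the adjusted p was 0.284 without both LD_406 and LD_515 and 0.201 with the mouse number covariate. The macrophage and stromal protease Mmp19 gave a log2 difference of -0.52 (adjusted p = 0.142), Adamts9 -1.03 (adjusted p = 0.237) and the urokinase gene Plau -0.89 (adjusted p = 0.402). Among 17 other matrix glycoproteins and proteoglycans 0 passed the threshold, with a median of -0.47. The fibulins Efemp1 (log2 difference -0.95, SE 0.24, adjusted p = 0.0695) and Fbln5 (log2 difference -0.85, SE 0.25, adjusted p = 0.110) did not overlap between the diets. Prelp (log2 difference -0.62, SE 0.21, adjusted p = 0.144) and Dpt (log2 difference -1.12, SE 0.38, adjusted p = 0.148), which bind collagen fibrils, did.

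Among 8 partners of the PDGF, HGF and GAS6 genes 0 passed the threshold, with a median log2 difference of -0.53. The PDGF ligand Pdgfb averaged 1.57 ± 1.10 CPM on the Longevity diet and 3.17 ± 1.24 CPM on the standard diet (log2 difference -1.08, SE 0.43, adjusted p = 0.214), and Pdgfc gave a log2 difference of -0.71 (adjusted p = 0.296). Met, the receptor of Hgf on hepatocytes, averaged 44.9 ± 15.2 CPM on the Longevity diet and 72.5 ± 21.4 CPM on the standard diet (log2 difference -0.74, SE 0.29, adjusted p = 0.208), and Hgfac, which activates Hgf, gave a log2 difference of 0.37 (adjusted p = 0.361).

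Marker lists of the liver's cell types were set beside these results. All 16 stellate cell markers were tested, 10 of them being listed genes. Of the 16, 3 fell and 0 rose, where 1.23% of all tested genes fell and 0.661% rose. Their summed level was 440.2 to 769.9 CPM on the Longevity diet and 777.0 to 888.6 CPM on the standard diet, and 0 of the 16 lay under the floor in all mice, so that the defining markers of these cells were detected. Besides Pdgfrb, the collectin gene Colec10 fell to 22.6 ± 8.15 CPM on the Longevity diet, against 49.6 ± 6.88 CPM on the standard diet (log2 difference -1.19, SE 0.24, adjusted p = 0.0245) and the metalloreductase gene Steap4, which hepatocytes also express, fell to 55.9 ± 27.2 CPM on the Longevity diet, against 130.2 ± 28.3 CPM on the standard diet (log2 difference -1.34, SE 0.31, adjusted p = 0.0422). Leaving out LD_406, SD_403, SD_500, SD_501 or SD_646 ended both calls (adjusted p 0.0778 for Colec10 and 0.126 for Steap4 without LD_406), as did leaving out LD_513 for Colec10 (adjusted p = 0.0503) and LD_515 (adjusted p = 0.104) or SD_502 (adjusted p = 0.0760) for Steap4. The adjusted p was highest without both LD_406 and LD_515, at 0.142 for Colec10 and 0.315 for Steap4, and was 0.108 for Colec10 and 0.173 for Steap4 with the mouse number covariate.

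Markers of sinusoidal endothelium stood lower as well. Of 14 tested 0 passed the threshold in limma, and 9 had an unadjusted p under 0.05 with a lower value, against 11.6% of all tested genes. With CPM as deposited 14 had a log2 difference below 0, against 60.4% of all tested genes, and the median was -0.69. Signs under the other scalings were not counted for this list. The mean log2 level of the list was lowest in LD_515 (3.28) and LD_406 (3.34). It lay between 4.00 and 4.23 in the remaining Longevity diet mice, against 4.30 to 4.69 in the standard diet mice. Endothelial cells also express some of the listed genes, such as Sparc, Bgn and Vim, and the part of these cells in the result was not tested. Without both LD_406 and LD_515 the median log2 difference of the listed genes was -0.46, against -0.10 for all genes. In that smaller fit 17 of all 13157 genes passed the threshold, 0 of them listed, so the count shows nothing particular to the listed genes.

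Kupffer cell and macrophage markers had a median log2 difference of -0.53 over 12 genes, with 0 past the threshold, and a summed level of 271.7 to 899.4 CPM on the Longevity diet and 513.6 to 867.7 CPM on the standard diet. Neutrophil markers were summed at 1.98 to 6.25 CPM on the Longevity diet and 5.31 to 96.9 CPM on the standard diet. Of 4 tested, S100a8 fell (log2 difference -3.79, SE 0.88, adjusted p = 0.0456), where 1.23% of all tested genes did. It lay at 0.179 to 0.637 CPM on the Longevity diet, against 24.6 CPM in SD_403, 34.6 CPM in SD_646 and 0.826 to 3.55 CPM in the other standard diet mice. The log2 difference was -3.25 without SD_403, -3.13 without SD_646 and -2.46 with a pseudocount of 1 CPM (adjusted p = 0.103). The S100a8 call was lost in 17 of 21 alternative settings, among them without any 1 mouse other than SD_502, with adjusted p up to 0.247 without both LD_406 and LD_515. The 10 hepatocyte markers had a median of -0.01. Their mean log2 level overlapped, at 11.24 to 11.50 on the Longevity diet and 11.23 to 11.70 on the standard diet. Mostly through Alb, they summed to 145500.0 to 198451 CPM on the Longevity diet and 97802 to 146337 CPM on the standard diet. Of the 10 hepatocyte markers Cps1 fell (log2 difference -0.98, SE 0.22, adjusted p = 0.0376), where 1.23% of all tested genes did. This call was lost without LD_442, LD_515 or any 1 standard diet mouse (adjusted p up to 0.0895), with the mouse number covariate (adjusted p = 0.178) and without both LD_406 and LD_515 (adjusted p = 0.137).

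The summed markers of other matrix-producing cells overlapped between the diets. Vascular smooth muscle markers were summed at 22.7 to 71.8 CPM on the Longevity diet and 68.7 to 104.0 CPM on the standard diet, and portal and other fibroblast markers at 11.3 to 21.8 CPM on the Longevity diet and 12.0 to 41.4 CPM on the standard diet. Mesothelial markers were summed at 2.40 to 4.04 CPM on the Longevity diet and 1.85 to 10.9 CPM on the standard diet. None of the markers found in the table lay under the floor in all 10 mice. The 7 tested fibroblast markers were split, 4 having a log2 difference below 0 and 3 above 0, with a median of -0.71. Of 3 tested smooth muscle, 7 fibroblast and 1 mesothelial markers 0 passed the threshold. Cholangiocyte markers had a median log2 difference of -0.06 over 5 genes, with 0 past it and sums of 33.1 to 56.4 CPM on the Longevity diet and 40.3 to 67.8 CPM on the standard diet. The part of any of these cell types in the differences of the listed genes was not tested.

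**Figure D4:**
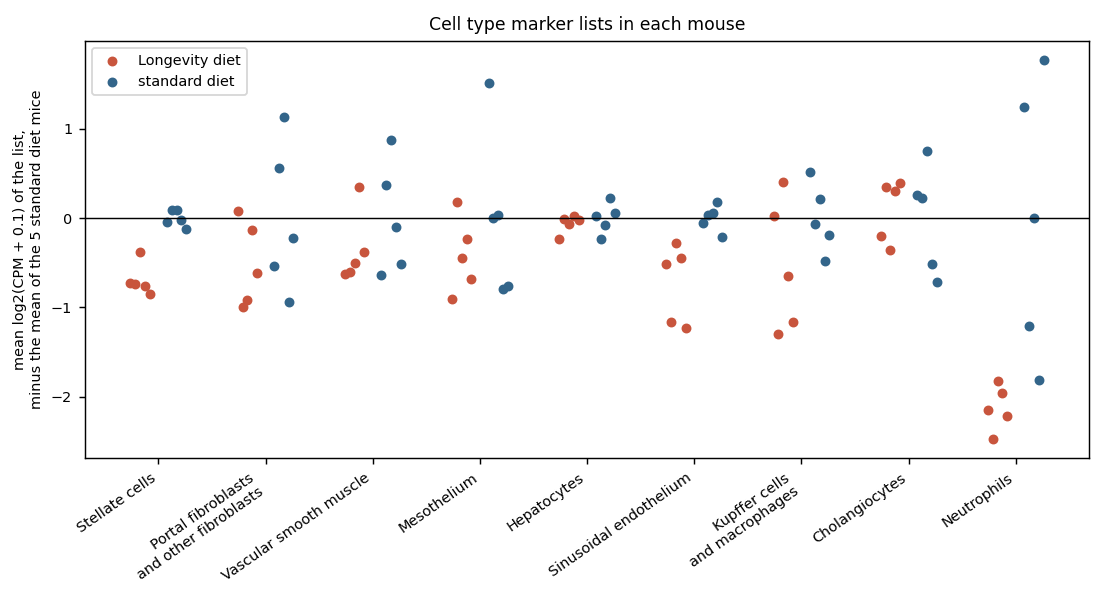
Mean log2(CPM + 0.1) of each cell type marker list in each mouse, relative to the mean of the 5 standard diet mice (y axis), with the Longevity diet left and the standard diet right within each list (x axis). Stellate and sinusoidal endothelial markers lie lower in all 5 Longevity diet mice than in any standard diet mouse, LD_406 and LD_515 being lowest of the endothelial points, and the other lists overlap except for neutrophils.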

How the data were processed

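Livers of 10 mice were sequenced. Reads were aligned with STAR and handled in Partek on mm39, per the submitters' processing notes. The quantifier and strand setting are not given in the sources used here, so reads of a gene and an overlapping antisense gene cannot be told apart. The deposited table holds CPM, to which the authors added 0.0001 (subtracted here). Depth was estimated from the step between low values. Between 84.5% and 88.0% of values lay within 0.1 of a whole read, so they were not treated as counts.

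The tests used genes averaging 1 CPM or more, on log2(CPM + 0.1) with limma 3.58.1 (trend, robust, two-sided, statmod 1.5.0, R 4.3.3), with diet as the only term and Benjamini-Hochberg adjustment over all 13157 genes. This scale understates changes of low genes. The procedure was tested on simulated data. Single genes also had a two-sided exact permutation test over 252 assignments. The labels do not state more than separate mouse numbers, and no number occurs on both diets. Floors of 3 reads cover counting error only. Exon lengths came from GENCODE M21.

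The members and lists were chosen with earlier results of these data known. Among the listed genes, all 10 values are given for those past the threshold and those with an unadjusted p under 0.05 and no overlap. They are also given for the 2 most abundant genes of each role group. Of other lists, up to 4 genes with the smallest p are named. Values in all 10 mice of Lrat, Ngfr, Bmp5, Acta2, Thbs1, Timp1, Lox, Tgfb3, Ccn2 and Pdgfra were added after their values were seen. Alternatives covered pseudocount, filter, scaling, mouse weights, a covariate and mice left out.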

Additional observations from a re-analysis of the deposited data

Results flagged for a closer look

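In 3 of 82 groups of 5 mice, 1 mouse lay farther from the others on the log2(CPM + 0.1) scale than Dixon's 95% limit allows. Chance alone flags about 1 in 20 groups. Pdgfra was at 1.89 CPM in LD_405, against 5.82 to 8.31 CPM in the other Longevity diet mice. Timp3 was at 9.56 CPM in LD_405, against 20.1 to 25.2 CPM in the others on that diet. Ltbp4 was at 12.1 CPM in LD_515, against 25.4 to 31.6 CPM in the others on that diet.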

How the results depend on the processing

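The median log2 difference of the listed genes stayed below 0 in all 21 alternatives (-0.74 to -0.41), and 0 listed genes were called higher in limma under any of them, with 0 higher at an unadjusted p under 0.05 in the reported fit. The number called lower, 2 as reported, was 1 after quantile normalization, 9 with weights per mouse, 0 with the leading digit of the mouse number as a covariate, 0 without both LD_406 and LD_515, and 0 to 4 with 1 mouse left out. Calls over the whole table, 249 as reported, were 805 with weights, 98 with the covariate, 17 without that pair and 97 to 378 with 1 mouse left out. The cause was not tested. Of the 37 tested genes 31 kept their sign throughout. With 1 mouse left out, the log2 difference ran from -0.46 to 0.24 for Sparcl1, -0.31 to 0.21 for Timp3, -0.10 to 0.23 for Mmp14, -0.40 to 0.23 for Mgp and -0.41 to 0.25 for Ccn2. Quantile normalization gave 0.052 for Sparcl1, 0.033 for Timp3, 0.099 for Mgp, 0.072 for Ltbp1 and 0.091 for Ccn2. Median-of-ratios and TMM style scaling gave 0.058 (both) for Timp3 and 0.054 (both) for Ccn2, and weights per mouse gave 0.017 for Timp3 and 0.49 for Ccn2. Thy1 was at 0.082 without the pair. No paired analysis was possible because no mouse number occurs on both diets. Depth limited Timp1, Lox, Tgfb2 and Thbs1, each at or under the floor of 3 reads in at least 1 mouse.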
